A study of Mus musculus with 12 samples.

Results

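Mitf, Tfe3, Tfeb, Sox10, Kit and Mc1r, 6 genes of the MITF transcription factor family and of the melanocyte lineage, were followed in adult mouse retinas after deletion of Otx2 in photoreceptors (PRs). The genes were chosen by name and were found by matching the Ensembl identifiers of the count files to mouse symbols. All 6 were found among the 54146 genes counted, and all 6 were among the 18628 genes that had enough counts to be tested. Tfec, the remaining gene of the MITF family, was read beside them but had too few counts to be tested.

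Whole-retina poly(A) RNA was sequenced from 12 mice of both sexes on a 129/SV background, with 3 mice in each of 4 conditions. PR-specific Otx2 knock-out (cKO) mice carried a Crx-CreERT2 transgene, which drives a tamoxifen-dependent Cre from the promoter of the PR gene Crx, and Otx2 flox/flox alleles. They received 1 tamoxifen injection at P30 and were killed 2, 4 or 8 d later, at P32, P34 or P38. The P30 mice are labelled control and stand for 0 d, and the labels do not spell out their alleles. No uninjected mice were analysed here at P32, P34 or P38, so deletion, tamoxifen and age cannot be told apart. In bulk RNA, fewer cells of a type and less RNA per cell cannot be told apart either.

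The count files held 29701483 to 60145034 reads on genes per mouse. Levels are given as CPM, counts scaled to a common library total, after TMM scaling, and 3 counts, taken as the counting floor, were worth 0.0473 to 0.102 CPM. Otx2 lay at 293 to 328 CPM in the P30 mice and at 307 to 377 CPM in the cKO mice; these counts cover the whole gene and not the floxed exon alone, so they do not check the deletion. By Xist and Y-linked transcripts all 3 P30 mice were female, and 4 cKO mice were female and 5 male. Sex and condition are therefore partly mixed in the comparisons with P30. Marker lists for the labelled tissue gave 56811 to 101679 summed CPM for 15 retinal genes, and 206 to 373 for 10 genes of the retinal pigmented epithelium (RPE), which the study states was included. Lens transcripts varied most among mice, from 338 to 52654 summed CPM for 10 genes.

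MITF, TFE3, TFEB and TFEC are related basic helix-loop-helix leucine zipper proteins that bind E-box DNA as homodimers or as heterodimers with each other. MITF is the central regulator of pigment cells and acts both in neural crest melanocytes and in the RPE, whereas TFEB and TFE3 are held in the cytoplasm by mTORC1 and, when released, switch on lysosome and autophagy genes. SOX10 activates Mitf in neural crest derivatives, KIT is the receptor of stem cell factor that melanocytes need to survive and migrate, and MC1R is the melanocortin receptor that raises cAMP and, through CREB, Mitf transcription. In the retina KIT is also made by neurons, so the receptor does not mark melanocytes alone.

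Sequences just upstream of annotated starts were read for the genes to show the elements these factors are known for. Each line below gives the 160 bases before a RefSeq start, 5′ to 3′ on the strand of the gene, in build GRCm38. Capitals mark the E-box of pigment genes CATGTG, the E-box of lysosomal genes CACGTG, the cAMP response element TGACGTCA or the OTX and CRX core TAATCC, each searched on both strands so that CACATG and GGATTA are the same motifs read on the other strand. Mitf is shown at 2 of its 3 starts, Mc1r as the only one of the 5 members with a window that held either of these E-boxes, and Tyrp1 and Lamp1 as a pigment gene and a lysosomal gene for comparison.
Mitf, chr6:97991623-97991782 (+): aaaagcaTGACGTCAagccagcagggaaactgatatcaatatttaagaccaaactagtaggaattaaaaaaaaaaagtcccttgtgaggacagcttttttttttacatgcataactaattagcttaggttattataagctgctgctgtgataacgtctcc
Mitf, chr6:97929657-97929816 (+): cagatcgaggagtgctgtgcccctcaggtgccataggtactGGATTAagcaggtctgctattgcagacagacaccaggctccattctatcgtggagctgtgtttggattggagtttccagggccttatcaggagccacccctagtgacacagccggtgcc
Mc1r, chr8:123406922-123407081 (+): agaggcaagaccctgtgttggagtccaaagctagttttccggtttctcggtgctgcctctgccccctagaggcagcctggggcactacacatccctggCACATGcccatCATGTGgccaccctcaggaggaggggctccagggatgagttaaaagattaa
Tyrp1, chr4:80834053-80834212 (+): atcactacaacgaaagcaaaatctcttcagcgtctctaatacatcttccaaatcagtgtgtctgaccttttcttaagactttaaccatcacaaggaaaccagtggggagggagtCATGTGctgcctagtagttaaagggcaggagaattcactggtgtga
Lamp1, chr8:13159001-13159160 (+): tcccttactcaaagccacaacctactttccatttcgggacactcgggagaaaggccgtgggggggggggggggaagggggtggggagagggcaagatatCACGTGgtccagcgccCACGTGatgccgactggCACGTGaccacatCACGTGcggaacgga

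The most downstream Mitf start, which melanocytes are known to use, had a TGACGTCA that began 153 bases before it. The start at 97929817 had a TAATCC match at 119 bases, and the third start, at 97807058, had none of the 4 motifs. Mc1r had CATGTG matches at 62 and 51 bases before its start. Over 32851 RefSeq windows of 250 bases, 12.3% held CATGTG, 6.02% held CACGTG, 1.55% held TGACGTCA and 6.25% held TAATCC. The table held windows for 5 of the 6 members, 11 windows in all, of which 1 held CATGTG, 0 held CACGTG, 1 held TGACGTCA and 1 held TAATCC. For comparison CATGTG was in 7 of 16 windows of the melanogenic genes listed below, and CACGTG in 16 of 36 windows of the lysosome and autophagy genes. These matches describe the letters in the windows and were not tested as binding sites. The counts are summed over each gene, so they do not show which Mitf start was used.

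On GRCm38 Mitf (ENSMUSG00000035158) spans chr6:97807052-98021349 on the plus strand, with 8 annotated transcripts and 6196 bases of exon. Tfe3 (ENSMUSG00000000134) lies at chrX:7762560-7775202 and Tfeb (ENSMUSG00000023990) at chr17:47737030-47792419, both on the plus strand. Sox10 (ENSMUSG00000033006) lies on the minus strand at chr15:79154908-79165240, and Kit (ENSMUSG00000005672) on the plus strand at chr5:75574916-75656722. Mc1r (ENSMUSG00000074037) is annotated as 1 exon at chr8:123407107-123410744. That exon shares 653 bases with the antisense transcript Gm38092 and lies inside the span of Gm20388 with 0 shared exon bases, and Tubb3, a neuronal tubulin gene on the same strand, starts 679 bases further on. The libraries keep the strand, but the strand setting of the counting is not given in the sources used here, so reads of Mc1r and of Gm38092 may not be separated.

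Tfe3 was the most abundant of the genes per exon length and Sox10 the least. Mean levels over the 12 mice were 4.33 CPM per kb of exon for Tfe3, 2.79 for Mc1r, 1.97 for Mitf, 1.31 for Tfeb, 1.23 for Kit and 0.211 for Sox10. In this order the ranges over mice of Mc1r and Mitf overlapped, as did those of Mitf and Tfeb and of Tfeb and Kit, so these neighbours did not separate beyond the spread among mice. Tfe3 was above Mc1r in every mouse and Kit above Sox10 in every mouse, with no overlap of the ranges. By CPM not divided by length, 70.3% of the tested genes lay below Tfe3, 46.9% below Mitf, 45.5% below Kit, 44.6% below Mc1r, 40.8% below Tfeb and 15.6% below Sox10.

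**Figure D1:**
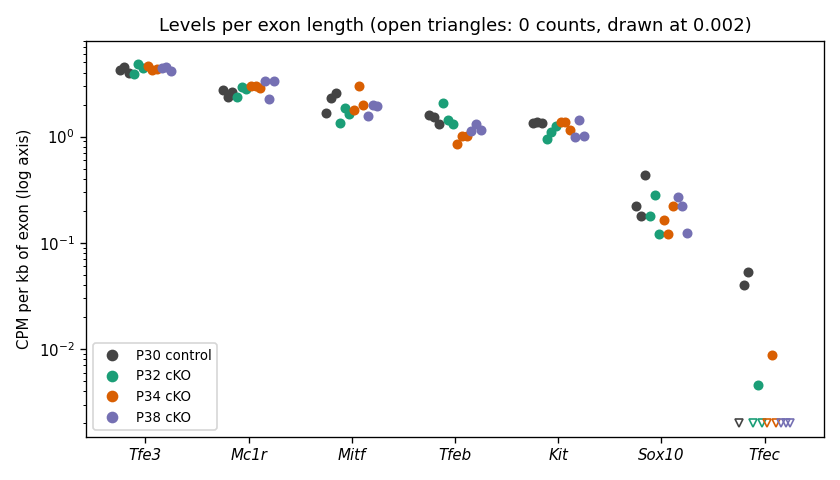
Level per exon length, in CPM per kb on a log axis, of Tfe3, Mc1r, Mitf, Tfeb, Kit, Sox10 and Tfec, with 1 point for each of the 12 mice coloured by condition and open triangles for 0 counts. The order runs from Tfe3 at a mean of 4.33 to Sox10 at 0.211, and Tfec had counts in 4 mice.

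Sox10 was the member nearest the counting floor, and none of the 6 was at it. Its counts per mouse ran from 11 to 45, and its lowest level was 3.61 times the highest floor. The lowest counts of the other members were 168 for Tfeb, 268 for Kit, 278 for Mitf, 286 for Mc1r and 1118 for Tfe3. Tfec had 0, 11 and 10 counts in P30 mice 1, 2 and 3, 1 count in P32 mouse 5, 2 counts in P34 mouse 8 and 0 counts in the other 7 cKO mice. It was therefore above the floor only in P30 mice 2 and 3, at 0.222 and 0.297 CPM.

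By edgeR none of the 6 genes passed the test in any of the comparisons of conditions, and DESeq2 called 1, Tfeb, at P34 against P32 and 0 in each of the others. A gene was called where the adjusted p of edgeR's quasi-likelihood test was 0.05 or less and the log2 fold change was 0.5 or more in size. Among all genes tested, 0% were called at P32 against P30, 0.66% at P34 and 0% at P38, and 0.0537% with the 9 cKO mice as 1 group. Between ages of cKO mice 0.242% were called at P34 against P32, 0.199% at P38 against P34 and 0% at P38 against P32. At an unadjusted p of 0.05 or less with the same fold limit, 1 member, Tfeb, was lower at P34 against P30, where 5.42% of tested genes were lower and 0.854% higher. No member reached these limits at P32 or P38, where 2.9% and 3.46% of the tested genes did, in either direction.

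**Figure D2:**
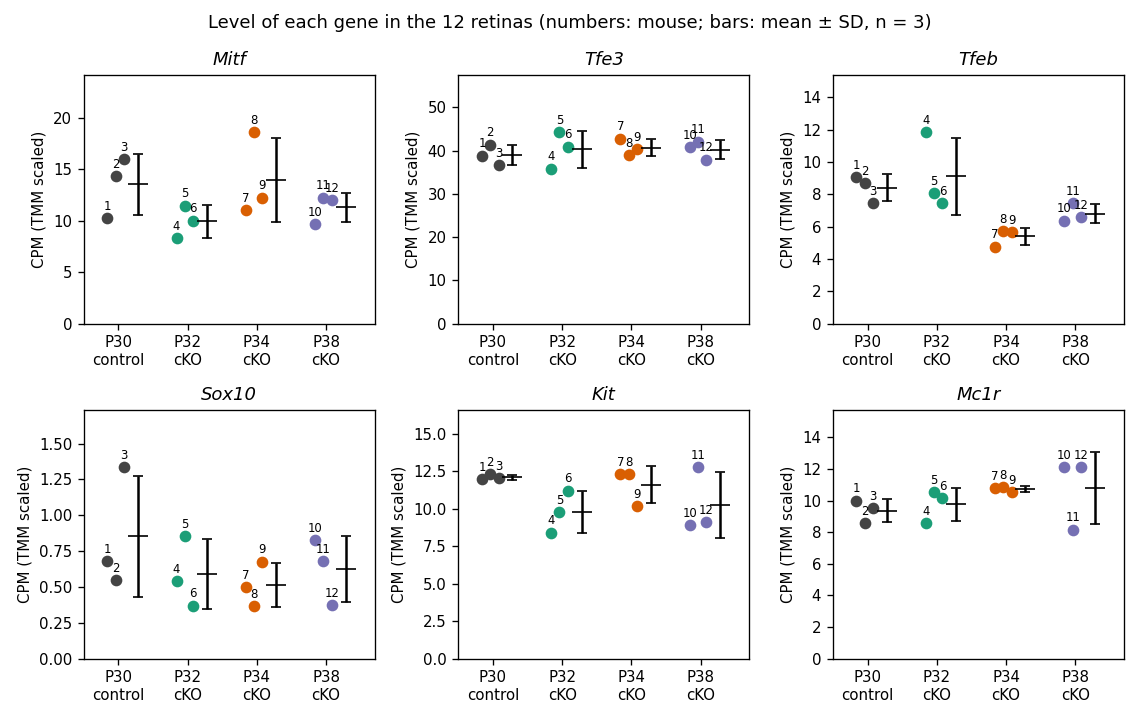
Levels of the 6 genes in CPM (y axes start at 0) in each of the 12 mice, numbered, by condition, with the mean and SD of the 3 mice of a condition as bars. The P34 mice lie at 4.77 to 5.73 CPM for Tfeb, below the 7.45 to 9.06 CPM of the P30 mice, whereas Tfe3 stays between 35.8 and 44.3 CPM in all 12.

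Mitf was at 10.3, 14.4 and 16.0 CPM in the P30 mice. The P32 mice had 8.34, 11.5 and 10.0 CPM, the P34 mice 11.01, 18.6 and 12.2 CPM and the P38 mice 9.70, 12.2 and 12.0 CPM. The conditions overlapped, and the highest value of all belonged to P34 mouse 8. The 4 condition means were, by age, 13.5 ± 2.94, 9.94 ± 1.57, 14.0 ± 4.08 and 11.3 ± 1.40 CPM (SD, n = 3). Against P30 the log2 fold change of the P32 mice was -0.44 (95% CI -0.93 to 0.04), that of the P34 mice 0.05 (-0.43 to 0.53) and that of the P38 mice -0.26 (-0.74 to 0.22), with edgeR adjusted p of 0.698, 0.968 and 0.870. Mitf was also compared between P32 and P34, where it was 0.49 higher on the log2 scale (95% CI 0.01 to 0.98, edgeR adjusted p = 0.182). The small P34 value depended on single mice, since it was -0.22 without mouse 8 and -0.12 without P30 mouse 1.

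Tfe3 varied least, with a coefficient of variation of 6.23% over the 12 mice. It was at 38.9, 41.4 and 36.7 CPM at P30 and at 35.8, 44.3 and 40.9 CPM at P32. It was at 42.8, 39.0 and 40.4 CPM at P34 and at 40.8, 42.1 and 37.9 CPM at P38. All 4 conditions overlapped. Against P30 its log2 fold changes were 0.05, 0.06 and 0.05 by age, and over the 9 cKO mice together the 95% CI ran from -0.12 to 0.22. Because Tfe3 is X-linked, it was also read by sex in the cKO mice, where it was at 40.9 ± 2.61 CPM in 4 females and 40.1 ± 2.80 CPM in 5 males.

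Tfeb had the lowest p of the 6 at P34. It was at 9.06, 8.70 and 7.45 CPM at P30 and at 11.8, 8.09 and 7.44 CPM at P32, and it was at 4.77, 5.73 and 5.68 CPM at P34 and at 6.38, 7.45 and 6.58 CPM at P38. Every P34 mouse was below every P30 mouse, every P32 mouse and every P38 mouse. Over all tested genes, 9.67% were lower in every P34 mouse than in every P30 mouse and 13.6% lower than in every P32 mouse, and 5.36% were higher in every P38 mouse than in every P34 mouse. Against P30 Tfeb was lower at P34 by a log2 fold change of -0.64 ± 0.18 (SE; 95% CI -1.04 to -0.24), with an unadjusted p of 0.00459 and an edgeR adjusted p of 0.232. Against P32 the log2 fold change at P34 was -0.76 ± 0.18 (95% CI -1.16 to -0.35), with an edgeR adjusted p of 0.0948, in a comparison where 0.242% of tested genes were called and 8.93% were lower by the unadjusted limits. This second difference was called by DESeq2, and by edgeR without P32 mouse 6, which had the lowest P32 value. The P32 mean was raised by mouse 4, at 11.8 CPM beside 8.09 and 7.44 CPM in the other P32 mice. From P34 to P38 the log2 fold change was 0.34 (95% CI -0.07 to 0.74), and P38 differed from P30 by -0.31 (-0.70 to 0.09), neither called.

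**Figure D3:**
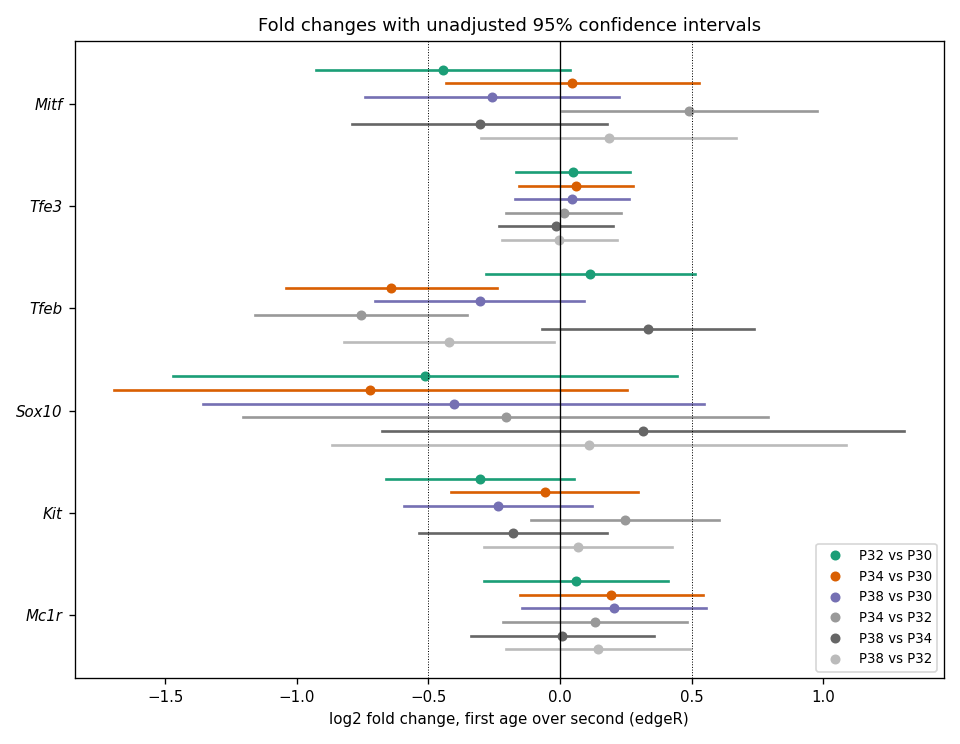
log2 fold changes of the 6 genes for the 6 pairs of conditions (points) with unadjusted 95% confidence intervals (lines), dotted lines marking a log2 fold change of 0.5 in size. Tfeb at P34 against P32 (-0.76) and against P30 (-0.64) lies farthest from 0 relative to its interval, and the intervals of Sox10 are the widest.

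Sox10 was at 0.678, 0.545 and 1.34 CPM at P30. The P32 mice had 0.540, 0.852 and 0.369 CPM, the P34 mice 0.497, 0.367 and 0.677 CPM and the P38 mice 0.824, 0.680 and 0.373 CPM. P30 mouse 3 stood above the other 11 mice, and the other values overlapped. Its log2 fold changes against P30 were -0.51, -0.72 and -0.40 in order of age, with 95% CIs of -1.47 to 0.44, -1.69 to 0.25 and -1.36 to 0.55. These intervals were wide beside the fold limit of 0.5, with 11 to 45 counts per mouse and a coefficient of variation of 42.5% over the 12 mice. Without P30 mouse 3 the value at P38 became 0.04 and that at P34 became -0.28.

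Kit was even at P30, with 11.9, 12.3 and 12.0 CPM. The P32 mice had 8.40, 9.76 and 11.2 CPM, the P34 mice 12.3, 12.3 and 10.2 CPM and the P38 mice 8.90, 12.8 and 9.09 CPM. Every P32 mouse was below every P30 mouse, as were 4.39% of the tested genes, while the later ages overlapped with P30. Its log2 fold change at P32 was -0.30 (95% CI -0.66 to 0.05, edgeR adjusted p = 0.698), and the P34 and P38 mice had -0.06 and -0.24.

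Mc1r was at 9.99, 8.56 and 9.53 CPM at P30 and at 8.58, 10.5 and 10.2 CPM at P32. It was at 10.8, 10.8 and 10.5 CPM at P34 and at 12.1, 8.16 and 12.1 CPM at P38. The P34 mice were close together and all above the P30 mice, as were 10.4% of the tested genes, and the other ages overlapped with P30. The log2 fold changes from P30 were 0.06, 0.20 and 0.20 at P32, P34 and P38, and the P38 value had a 95% CI of -0.14 to 0.55.

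Of the melanogenic genes, among them known targets of MITF in pigment cells, some were called lower at P34, where Mitf was not called; the difference between the changes was not tested. A list of 20 melanogenic genes, among them the melanin enzymes Tyr, Tyrp1 and Dct and the melanosome proteins Pmel, Mlana and Gpnmb, had 19 tested members. At P34 against P30, 5 of the 19 were called lower and 0 higher, where 0.66% of all tested genes were called in either direction. The median log2 fold change was -2.08 over the 19, beside -0.0013 over all genes tested. The remaining 14 were not called, and their highest value was 0.44, for Myo5a. By fold change 18 of the 19 were negative, and 15 were lower by the unadjusted limits, as were 5.42% of all tested genes. The genes called were Mlph, which links melanosomes to myosin Va, at -4.32 ± 0.65 (SE, edgeR adjusted p = 0.00893), Mlana at -4.42 ± 0.82 (0.0316), Gpnmb at -3.92 ± 0.72 (0.0310), Tyrp1 at -3.73 ± 0.69 (0.0316) and Rab38, a Rab protein of melanosome traffic, at -2.08 ± 0.39 (0.0354). Rab38 was named because it completes the count. At P32 and P38 0 of the 19 were called, with 12 and 10 lower by the unadjusted limits. The list's most abundant members, Trpm1, which bipolar cells also use as a channel, and the widely used motor Myo5a, were not called at any age. The count of 5 at P34 fell to 0 without any 1 of the 3 P34 mice and rose to 12 without P30 mouse 1, and it was 1 without P30 mouse 2 or 3 or without P38 mouse 10 or 11. Without P34 mouse 7, 8 or 9 the median log2 fold change was -2.60, -2.23 or -2.20, with 18 of the 19 negative each time, so the calls were lost while the median was not smaller. Without P30 mouse 1, 2 or 3 the median was -2.34, -1.80 or -2.12, with 18, 18 or 17 of the 19 negative.

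**Figure D4:**
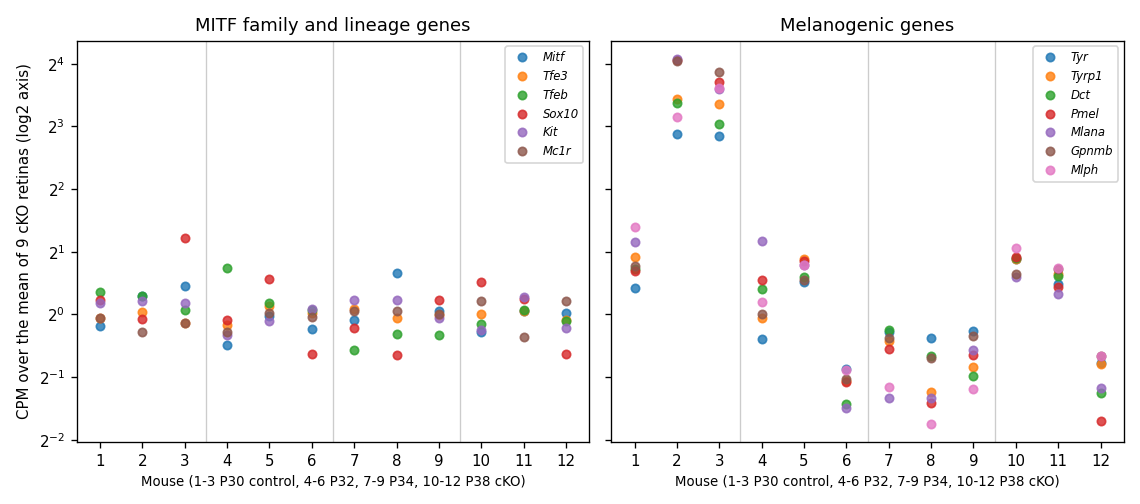
CPM of the 6 genes (left) and of 7 melanogenic genes (right) in each mouse, divided by the mean of the 9 cKO mice, on a log2 axis with mice 1 to 12 along the x axis. P30 mice 2 and 3 stand above the other 10 mice in all 7 melanogenic genes and in none of the 6 genes on the left.

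The melanogenic difference came with a split among the control mice. In 14 of the 19 tested melanogenic genes P30 mice 2 and 3 were above all 10 other mice, a pattern found in 2% of all tested genes and in 0 of the 6 members. Tyrp1 was at 19.7, 114 and 107 CPM in P30 mice 1, 2 and 3 and at 4.41 to 19.3 CPM in the cKO mice. Pmel was at 25.1, 257 and 202 CPM in the P30 mice and at 4.75 to 29.3 CPM in the cKO mice. Averaged, P30 mice 2 and 3 exceeded mouse 1 by a ratio of 5.47 for Tyr and 9.15 for Pmel, but the ratio was 1.48 for Mitf, 1.39 for Sox10, 1.02 for Kit, 1.01 for Tfe3, 0.905 for Mc1r and 0.891 for Tfeb. The 5 melanogenic genes without the split were Gpr137b, Rab32, Myo5a, Met and Trpm1, with ratios of 0.840, 1.20, 1.24, 1.32 and 1.64, and Rab27a, which had it, was at a ratio of only 1.36. Tfec showed the same split at a few counts, as given above.

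Markers of other cell types were read for the same mice. For scale, 0.66% of all tested genes were called at P34 against P30, in either direction. By the unadjusted limits 5.42% were lower at P34 against P30 and 8.93% at P34 against P32. P30 mice 2 and 3 were above all 10 other mice in 2% of the tested genes. Of 7 tested smooth muscle genes, 4 were called lower at P34, and 4 had P30 mice 2 and 3 above all other mice; their summed level was 147 to 356 CPM at P30 and 110 to 220 CPM in the cKO mice. Of 6 tested ciliary and iris genes, 4 were called lower at P34, and their sum was 40.1 to 48.2 CPM at P30, 20.5 to 43.6 at P32, 10.7 to 15.7 at P34 and 22.9 to 38.5 at P38. Of 10 RPE markers edgeR called 0 at any age, with 1 lower by the unadjusted limits at P34, and their sum was 206 to 369 CPM at P30 and 244 to 373 CPM in the cKO mice. With the smooth muscle level as a covariate, 0 melanogenic genes were called at P34 and their median log2 fold change was -0.22, and with the level of 5 RPE genes (Rpe65, Best1, Lrat, Rdh5 and Ttr) as a covariate 5 were called with a median of -2.10. The smooth muscle level itself was higher in P30 mice 2 and 3 than in the other mice, so that fit does not fully separate it from the condition. Of 10 lens markers edgeR called 0 at any age, but all 10 were lower at P34 than at P30 by the unadjusted limits, with a median log2 fold change of -4.97, as were 9 against P32. P30 mice 1 to 3 had lens sums of 13293, 631 and 44040 CPM, and P32 mice 4 to 6 had 52654, 37915 and 864 CPM. The sums lay between 338 and 883 CPM at P34 and between 6322 and 16128 CPM at P38. P32 mouse 4, which had the most Tfeb, also had the highest lens sum, and P30 mouse 2 and P32 mouse 6, whose lens sums lay within the P34 range, had 8.70 and 7.44 CPM of Tfeb, above all 3 P34 mice. The ciliary and iris sums were 48.2 CPM in mouse 2 and 20.5 CPM in mouse 6, both above the P34 range. In mouse 4 that sum was 43.6 CPM, the highest of the cKO mice. These sums did not follow Tfeb throughout. Mouse 2 had the highest sum but less Tfeb than mouse 4. P38 mouse 10 had the highest P38 sum, 38.5 CPM, and the least Tfeb at P38, 6.38 CPM. The part of other tissues in the melanogenic difference and in the P34 level of Tfeb was not tested further.

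Markers were also read for the cells in which SOX10 and KIT are best known. The 8 melanocyte markers, which take in Sox10, Kit, Mc1r and the melanin genes Dct, Tyr and Mlana that the RPE shares, summed to 101 to 476 CPM at P30 and 46.0 to 111 CPM in the cKO mice. Dct alone was at 61.7 to 390 CPM at P30, and of the 7 tested markers edgeR called 1, Mlana, lower at P34. Pax3, which the RPE is not known for, was not tested and had at most 0.161 CPM in any mouse. For the Schwann and oligodendrocyte list, in which SOX10 also acts, 8 of 14 genes were tested and edgeR called 0, with 2 lower by the unadjusted limits at P34; Olig1, Olig2 and Mog did not exceed 0.0703 CPM, while Mbp was at 25.1 to 33.9 CPM. The myelin genes Prx and Pmp22 had the lowest p of the list at P34, with log2 fold changes of -3.57 and -1.32 from P30 and edgeR adjusted p of 0.287 and 0.346. Prx was at 12.8, 0.585 and 8.76 CPM at P30, 0.788 to 16.4 CPM at P32 and 3.80 to 14.8 CPM at P38, with a mean of 0.617 CPM at P34. Every P38 mouse was above every P34 mouse for both, by 3.91 and 1.10 on the log2 scale, and neither was called (edgeR adjusted p = 0.475 and 0.901). The mice with the least Prx, P30 mouse 2, P32 mouse 6 and the 3 P34 mice, were those with the lowest lens sums, and the part of lens tissue in these values was not tested. The summed level of that list was 91.7 to 120 CPM at P30, 77.1 to 139 at P32, 75.7 to 78.7 at P34 and 79.3 to 115 at P38. Of 8 mast cell markers, cells that also need KIT, only the histamine enzyme gene Hdc was tested and was not called, and Ms4a2 had 0 counts in all 12 mice.

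Among 15 further regulators of the melanocyte lineage, 13 were tested and Edn3 alone was called. Edn3, the ligand of the endothelin receptor that melanoblasts depend on, was at 1.25, 4.50 and 8.02 CPM at P30, whereas the P32 mice had 1.08 to 2.38 CPM, the P34 mice 0.497, 0.245 and 0.237 CPM and the P38 mice 0.680 to 1.15 CPM. Its log2 fold change at P34 was -3.79 ± 0.63 (SE, edgeR adjusted p = 0.0184), and it was not called at P32 or P38. Edn3 was also the 1 tested regulator with P30 mice 2 and 3 above all 10 other mice, the split seen in the melanogenic genes. Kitl, the ligand of KIT, had a log2 fold change of 0.37 at P34 (edgeR adjusted p = 0.540), and Zeb2, a zinc finger repressor, 0.25 (0.605). The median of the 13 at P34 was 0.04. Creb1, the factor that acts on the cAMP element of Mitf, was at 79.1 to 131 CPM and had a log2 fold change of 0.06 at P34.

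The receptor pathways gave 0 calls by edgeR at every age. In melanocortin signaling 6 of 11 genes were tested, with a median log2 fold change of 0.26 at P34 and 1 gene higher by the unadjusted limits. Mc4r, a melanocortin receptor of neurons, had a log2 fold change of 0.58 at P34 and 0.78 at P38, with edgeR adjusted p of 0.465 and 0.847. Agouti, the antagonist of MC1R, had 1 count in 1 mouse and 0 in the other 11, and Pomc, the precursor of the melanocortins, was at 3.60 to 9.92 CPM. In KIT signaling all 15 genes were tested, with a median of 0.08 at P34 and 2 genes lower by the unadjusted limits; the adaptor Shc1 was at -0.63 and the phosphatase Ptpn6 at -0.76, with edgeR adjusted p of 0.334 and 0.437.

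The lysosome and autophagy genes that TFEB and TFE3 are known to activate did not pass edgeR's test at any age. Of 43 genes 42 were tested, and the median log2 fold changes against P30 were 0.01, 0.06 and 0.05 in order of age. At P34, where Tfeb was lowest, 1 of the 42 was lower and 0 were higher by the unadjusted limits. The vacuolar ATPase subunit gene Atp6v0e had a log2 fold change of -0.44 and Cln3, a lysosomal membrane protein gene, -0.36, with edgeR adjusted p of 0.237 and 0.291. The abundant lysosomal genes Psap, which encodes prosaposin, and Atp6v1b2, another ATPase subunit, were at 0.06 and 0.17. Among 22 genes that control TFEB and TFE3 at the lysosome, such as Mtor, its partner Rptor and the kinase gene Gsk3b, edgeR called 0 and 0 passed the unadjusted limits at P34, and the median at P34 was 0.06. Rptor had the lowest p of these, with a log2 fold change of 0.29 at P34 (edgeR adjusted p = 0.494).

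**Figure D5:**
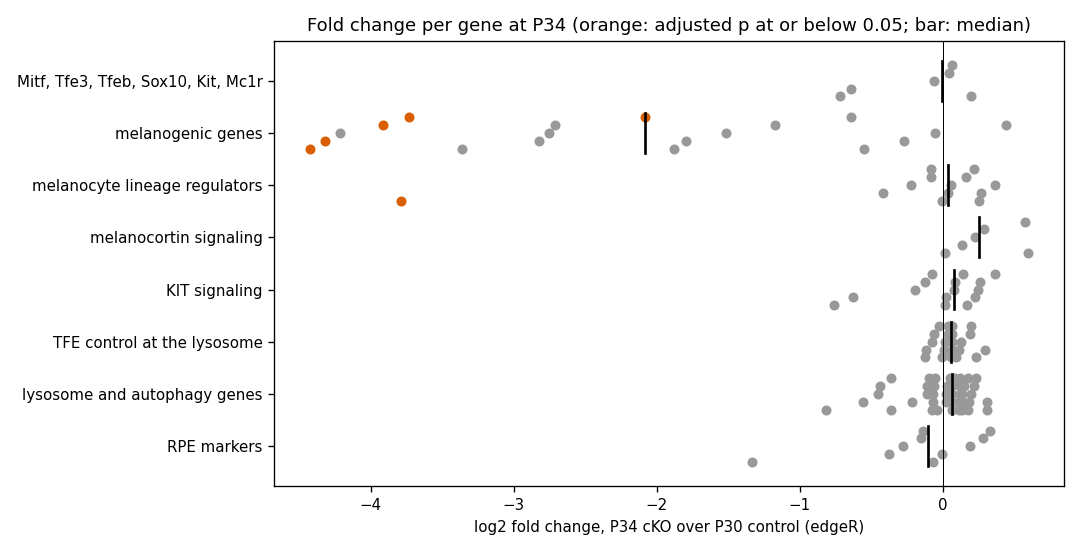
log2 fold change of each tested gene at P34 against P30 (x axis) for the 6 genes and 7 lists (rows), with called genes in orange and the median of each row as a black bar. The median of the 19 melanogenic genes is -2.08, and those of the lysosome and autophagy genes and of the genes controlling TFEB and TFE3 are both 0.06.

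For each member the tested genes whose log2 CPM went most closely with it over the 12 mice were taken as a description; the mice share tissue, depth and dissection, and the genes were picked from all those tested. Tfeb went most closely with 5330438D12Rik (r = 0.940, rho = 0.888), the junction protein gene Jam3 (r = 0.937, rho = 0.916) and the interferon factor gene Irf3 (r = 0.937, rho = 0.909). Without the 2 mice farthest from the median of Tfeb, mice 4 and 7, these r were 0.861, 0.892 and 0.878. Sox10 went with the pseudogene Gm8425 (r = 0.918, rho = 0.916), Fam198b (r = 0.909, rho = 0.818) and the collagen gene Col8a2 (r = 0.895, rho = 0.853), and without mice 3 and 8 the r were 0.901, 0.870 and 0.879. Kit went with Sorbs2, Spin4 and Tmem132d at r of 0.873, 0.872 and 0.867, with rho of 0.881, 0.783 and 0.930. Without mice 4 and 10 the r were 0.743, 0.849 and 0.754. Mitf was closest to the noncoding genes Gm43696, Gm30382 and Gm49705, at r of 0.895, 0.887 and 0.882, with means of only 0.791, 0.366 and 0.276 CPM. These r fell to 0.816, 0.799 and 0.690 without mice 4 and 8. For Tfe3 (Gpr153, Mvb12b and Sgpp2) and Mc1r (Cfap61, Fut4 and Mcm8) r lay between 0.834 and 0.863. Leaving out mice 3 and 4 for Tfe3 and mice 2 and 11 for Mc1r, r lay between 0.691 and 0.826. None of the melanogenic genes was among the closest genes of any member.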

How the data were processed

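Per the labels and the study's methods, the authors sequenced stranded poly(A) libraries from single-mouse retinas (50-base single-end reads), demultiplexed the reads with bcl2fastq 2.17.1.14, used STAR 2.5.3a for alignment to mm10, and HTSeq 0.6.1p1 with the Ensembl 93 annotation for counting. The deposited values are raw counts. Reads placed at several positions (23.7% to 32.2%) and reads outside genes (6.53% to 13.7%) stayed out of library sizes.

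Symbols were found for 54079 of 54146 genes. In R 4.3.3, edgeR 4.0.16 filtered genes by filterByExpr, scaled libraries by TMM, and fitted 1 quasi-likelihood model to all 12 mice with Benjamini-Hochberg adjustment over 18628 genes. A separate model took the 9 cKO mice as 1 group. Correlations used log2 CPM with a prior count of 2. The calling step was tested on simulated data. DESeq2 1.42.0, other scaling, filters, covariates, and leaving out each mouse were alternatives. The members, lists and tests were chosen with earlier results of these data known. Named list genes were the 4 lowest p at P34 and the 2 highest levels, and other genes are named as background or where a count needed them. Mice, 1 library each, are the replicates. Sequences are from RefSeq on GRCm38. No exon or transcript counts were analysed here.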

Additional observations from a re-analysis of the deposited data

Results flagged for a closer look

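Mitf in P34 mouse 8, at 18.6 CPM, stood apart from the other 8 cKO mice: its gap to the next highest mouse was 0.619 of the range of the 9 on the CPM scale and 0.521 on the log2 CPM scale, both above Dixon's 95% critical value for 9 values. Tfeb in P32 mouse 4, at 11.8 CPM, passed that value on the CPM scale, with a gap of 0.532 of the range, but not on the log2 CPM scale, where the gap was 0.421. The other 4 genes had no mouse past it on either scale. Chance alone passes it in about 1 of 20 groups drawn from a single population, and 6 groups were looked at on 2 scales. The 9 cKO mice were of different ages, so that rate may not hold for them. Without mouse 8 the log2 fold change of Mitf at P34 against P30 was -0.22 in place of 0.05, and without mouse 4 that of Tfeb at P32 was -0.12.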

How the results depend on the processing

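No paired analysis was possible because each mouse number occurs in 1 condition only. For the 24 fold changes against P30, 489 of 500 values under the alternatives that refit the model, which leave the adjusted p limit as it is, kept their direction and stayed uncalled. The 11 that turned are as follows. With the smooth muscle level as a covariate, Mc1r at P32 became -0.061, Mitf at P38 0.034, Sox10 at P38 0.13 and Sox10 over the 9 cKO mice 0.053. Leaving out 1 mouse at a time, Mitf at P34 ran from -0.22 (without mouse 8; without mouse 1, -0.12) to 0.18, Sox10 at P38 from -0.65 to 0.044 (without P30 mouse 3), Mc1r at P32 from -0.00055 (without P30 mouse 2) to 0.15, Tfeb at P32 from -0.12 (without mouse 4) to 0.24, Tfe3 at P32 from -0.023 (without mouse 5) to 0.13, and Kit at P34 from -0.11 to 0.012 (without mouse 9). The count of members called rose from 0 to 1, always Tfeb, for P34 against P30 with unadjusted p, and for P34 against P32 with unadjusted p, with DESeq2, and without P32 mouse 6 (0 to 1 over mice left out). The edgeR adjusted p of Tfeb at P34 against P30 was 0.232, and over the alternatives it ran from 0.0598 with DESeq2 to near 1 with the smooth muscle covariate. The log2 fold change of Tfeb there ran from -0.73 to -0.57 with 1 mouse left out. Over the other alternatives it ran from -0.77 to -0.63. A filter at 1 CPM removed Sox10. The melanogenic count of 5 at P34, in a check added after seeing the data, was 15 with unadjusted p, 11 with no filter, 2 with robust estimation, 0 with the smooth muscle covariate and 12 with DESeq2, and it ran from 0 to 12 when 1 mouse was left out. It was 0 without mouse 7, 8 or 9, 12 without mouse 1, and 1 without mouse 2, 3, 10 or 11. With 3 mice a condition, the causes of these shifts were not tested.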
